A study of Mus musculus with 160 samples.

Results

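The genes described here are *Dock2*, its paralogs *Dock1*, *Dock5*, *Dock8*, *Dock10* and *Dock11*, the scaffold genes *Elmo1* and *Elmo2*, and the GTPase genes *Rac1* and *Rac2*. They were chosen by name, as the paralogs and partners of the gene knocked out in one of the mouse lines, and make up 10 of the 39179 genes in the count files. All 10 were among the 19849 genes that passed the filter on low counts over all samples. RNA-seq was performed on the distal colon of 160 mice from 4 lines, each with homozygous knockouts (labelled HO) and wild-type controls (WT). The *Dock2* line held 18 knockout mice (8 female, 10 male) and 24 wild-type mice (12 of each sex). The *Nckap1l* (Hem1) line held 16 and 15 mice, with 4 and 8 females, the *Gpsm3* line 20 and 20 males, and the *Dok3* line 26 and 21 mice, all labelled male. The strain label is C57BL6/J for all lines except *Dok3*, which is labelled 129. Dextran sulfate sodium (DSS), a polymer that injures the colonic epithelium, was given in the drinking water for 5 days, at 3% in the *Dock2* and *Gpsm3* lines and 3.5% in the *Dok3* line per the labels. The first *Dok3* experiments used 3% instead, and the *Nckap1l* line, for which the labels give no dose, received a lower one than the other lines. Tissue was taken at day 10, or day 12 in the *Nckap1l* line. Both treated and untreated mice were sequenced, but the sources used here do not say which samples received DSS, so knockout and wild type were compared over both together. The knockouts were existing whole-animal models kept by crossing heterozygotes, and mice were used at 8 to 10 weeks of age. The part of *Dock2* removed by the allele and the litter of each mouse are not given in the sources used here.

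Rac proteins are small GTPases that drive actin assembly when loaded with GTP, and DOCK proteins are the exchange factors that load them. DOCK1, DOCK2 and DOCK5 bind ELMO proteins, which hold them at the membrane, whereas DOCK8, DOCK10 and DOCK11 belong to other branches of the family, whose targets include the related GTPase Cdc42. DOCK2 and RAC2 are made mainly by blood-derived cells, in which DOCK2 is needed for lymphocyte migration towards chemokines, whereas RAC1 and DOCK1 are found in most cell types.

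Counts of close paralogs rest on reads that can tell them apart. Over 15 pairs of DOCK, ELMO and Rac paralogs the longest identical run between annotated transcripts (GENCODE, GRCm38) was 30 bases, between *Dock1* and *Dock5*, against a read length of 100 bases. No read without a mismatch could therefore lie wholly in sequence shared by such a pair.

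The stretches upstream of *Dock2* and *Dock1* are shown as the start regions of a gene that followed leukocyte markers and of one that did so least. They are the 250 bases before the RefSeq start on GRCm38.p6, at chr11:34783906-34784155 on the minus strand for *Dock2* and at chr7:134670437-134670686 on the plus strand for *Dock1*, with each CG pair in capitals.
Dock2: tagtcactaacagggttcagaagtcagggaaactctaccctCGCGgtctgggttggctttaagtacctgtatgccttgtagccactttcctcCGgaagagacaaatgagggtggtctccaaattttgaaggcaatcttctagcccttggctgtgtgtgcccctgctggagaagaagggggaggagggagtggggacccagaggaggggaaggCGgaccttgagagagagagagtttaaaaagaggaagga
Dock1: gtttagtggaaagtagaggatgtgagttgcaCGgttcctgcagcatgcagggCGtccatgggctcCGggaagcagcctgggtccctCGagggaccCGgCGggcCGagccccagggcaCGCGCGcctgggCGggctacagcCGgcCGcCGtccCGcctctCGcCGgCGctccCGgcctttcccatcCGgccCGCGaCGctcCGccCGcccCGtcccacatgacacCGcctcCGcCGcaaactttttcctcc
The *Dock2* stretch held 4 CG pairs and the *Dock1* stretch 29, against a median of 6 over 32851 such stretches of the mouse genome, of which 44.4% had as few as *Dock2* and 94.1% as few as *Dock1* or fewer. The letters GGAAG, part of the sites that ETS factors bind, occurred 3 times in the *Dock2* stretch over both strands and once in that of *Dock1*, while 64.1% of all stretches held it at least once and 10.2% held it 3 times or more. The letters GGGCGG, a GC box, occurred in the *Dock1* stretch but not in that of *Dock2*, and in 32.7% of all stretches. *Dock10*, which also followed leukocyte markers, held 27 CG pairs and GGGCGG 2 times in the stretch at chr1:80758554-80758803. Its stretch at chr1:80665353-80665602 held 5 CG pairs and no GGGCGG. The *Dock11* stretch held 18 CG pairs. These matches describe the letters only, and whether they go with leukocyte expression was not tested. Of the 10 genes, 7 had an entry in the RefSeq table of start regions, and *Dock5*, *Rac1* and *Rac2* had none.

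Levels are given in CPM, which are counts scaled to a common library size by the TMM method. The samples held between 4344988 and 19993833 counts each (median 15989625), and 3 counts corresponded to between 0.15 and 0.69 CPM, which is below every member's level in every sample. Markers of distal colon were present in every sample (lowest mean log2 CPM 5.82). In 32 libraries the mean log2 CPM of skin markers (*Krt1*, *Krt5*, *Krt10*, *Krt14*, *Lor*) or of striated muscle markers was above 5, and 15 of these were in the *Nckap1l* line, 9 in the *Dok3* line, 3 in the *Gpsm3* line and 5 (1 knockout, 4 wild type) in the *Dock2* line. In 5 libraries of the *Dok3* line labelled male, the CPM of *Xist* exceeded the sum of 4 Y-linked genes. Where leaving these libraries out moved a call, both values are stated. The order of correlation with *Dock2* is also given without the libraries high in skin or striated muscle markers.

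Per kilobase of exon, the levels of the 10 genes spanned from 88.2 CPM for *Rac1* to 2.41 CPM for *Dock10* (medians over 160 samples). *Rac1*, the Rac protein of most cells, stood above *Dock1* (20.3 CPM per kb) in 80 of 80 wild-type samples. *Dock1* exceeded *Dock5* (18.4 CPM per kb), a paralog with the same ELMO-binding layout, in 56 of 80, and *Dock5* exceeded *Elmo2*, the next in order, in 80 of 80. The order then ran *Elmo2* (5.4), *Dock8* (5.27), *Rac2* (4.7), *Dock11* (4.07), *Elmo1* (4.05), *Dock2* (3.08) and *Dock10*, all as median CPM per kb. Neighbours from *Elmo2* to *Elmo1* changed places between mice. *Elmo2* was above *Dock8* in 42 of 80 wild-type samples, *Dock8* above *Rac2* in 44, and *Dock11* above *Elmo1* in 42. *Dock2* was above *Dock10* in 74 of 80.

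The genes also differed in how much they varied between mice. Over the wild types the SD of log2 CPM ran from 0.144 for *Dock1* to 0.978 for *Rac2*. In plain CPM, *Rac2* ran from 3.07 to 294 over all 160 samples, a 95.8-fold range, *Dock2* from 8.19 to 201 (24.6-fold) and *Dock10* from 18.7 to 321 (17.1-fold). *Dock1* stayed between 144 and 237 CPM (1.65-fold) and *Rac1* between 293 and 556 CPM (1.9-fold). The most variable genes were *Rac2*, *Dock2* and *Dock10*, and the steadiest the widely expressed *Dock1* and *Rac1*. The group means of *Dock1* lay between 19.5 and 20.9 CPM per kb in all 8 combinations of line and genotype, those of *Rac1* between 85 and 90.9, and those of *Rac2* between 4.33 and 10.4.

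The comparison of *Dock2* between knockout and wild-type mice of its own line asks whether the counts carry the knockout. *Dock2* (ENSMUSG00000020143, GRCm38 chromosome 11 from 34226815 to 34783892, minus strand) was detected in every knockout library. Its raw counts ran from 209 to 764 (median 360) in the 18 knockout-labelled libraries and from 261 to 952 (median 554) in the 24 wild-type libraries. In CPM the knockouts had a lowest, median and highest value of 13.1, 22.2 and 48.7, and the wild types 15.1, 34.2 and 75.4. The groups overlapped, with 3 knockout libraries above the wild-type median and 1 wild-type library below the knockout median. Means were 24.4 ± 10.2 CPM (SD, n = 18) and 37.5 ± 13.6 CPM (SD, n = 24). The knockouts were lower by a log2 value of -0.62 (standard error 0.168). With sex as covariate, edgeR's quasi-likelihood test gave p = 0.000644, or 0.21 after Benjamini-Hochberg adjustment over 17648 genes. *Dock2* was therefore not called at an adjusted p of 0.05 in a comparison in which 0.034% of genes were. Of the 6 genes called in this comparison none was among the 10. Counts cover the whole gene, so transcript that lacks the deleted part is counted with intact transcript. The call depended on the model. *Dock2* passed with DESeq2 (-0.62, adjusted p = 0.0484), where 0.391% of genes passed. It passed with 2 surrogate variables as covariates (-0.68, standard error 0.126, adjusted p = 0.00748, background 0.329%) and without the libraries high in skin or striated muscle markers (-0.78, standard error 0.167, adjusted p = 0.0173, background 0.451%). It did not pass with limma-voom (-0.63, adjusted p = 0.355).

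**Figure D1:**
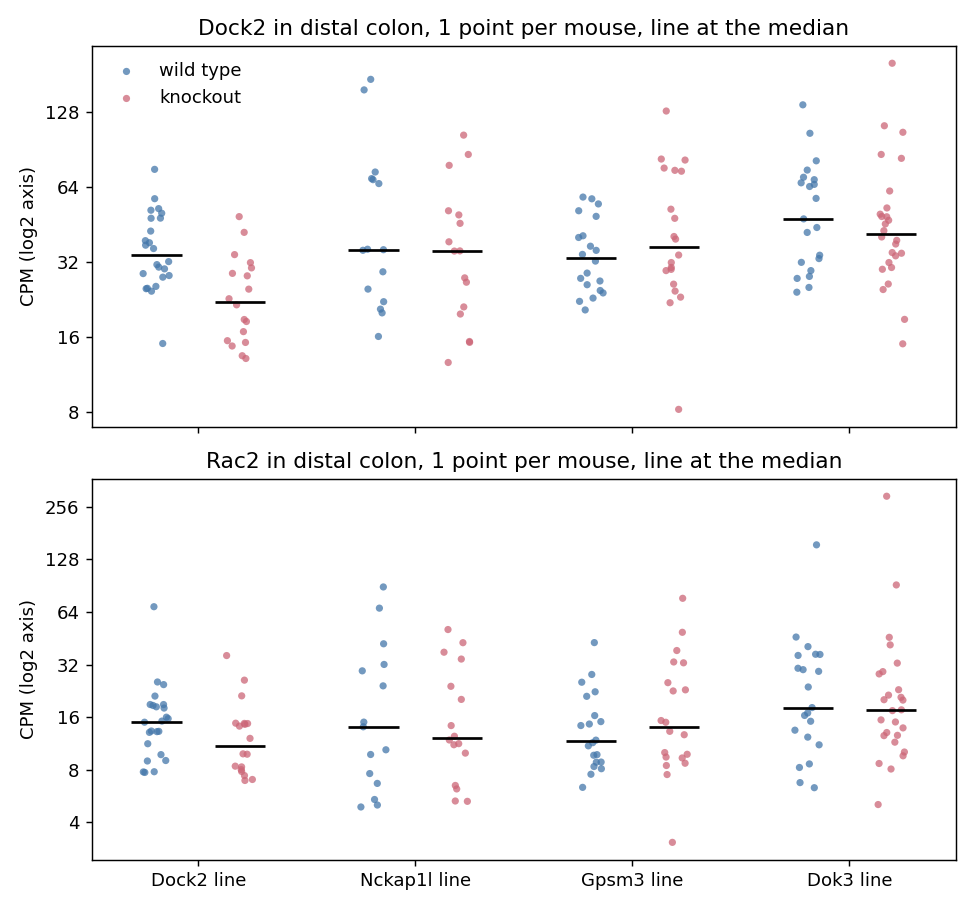
*Dock2* (top) and *Rac2* (bottom) in CPM on a log2 axis for each of the 160 mice, by line and genotype, with a bar at each group's median. Knockout mice of the *Dock2* line had a median *Dock2* of 22.2 CPM against 34.2 CPM in their wild types, with overlapping points, and both genes spread widely within every group.

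In whole tissue, fewer leukocytes and less *Dock2* RNA per leukocyte cannot be told apart from CPM alone, so *Dock2* was also set against 8 pan-leukocyte markers (*Ptprc*, *Cd53*, *Laptm5*, *Coro1a*, *Itgb2*, *Lcp1*, *Cd52* and *Ptpn6*). These had a mean log2 CPM of 4.89 ± 0.517 (SD, n = 18) in knockouts and 5.08 ± 0.505 (SD, n = 24) in wild types of the *Dock2* line. The log2 CPM of *Dock2* minus that mean was -0.724 at its lowest, -0.449 at the median and 0.324 at its highest in knockouts, and -0.527, 0.128 and 0.52 in wild types. The means were -0.385 ± 0.275 (SD, n = 18) and 0.0657 ± 0.291 (SD, n = 24). The difference of -0.45 (standard error 0.0879) had p = 3e-05 in a two-sided permutation test with 100000 resamples, adjusted to 0.00012 over the 4 lines. It was present within each sex. Among males it was -0.49 (10 knockouts and 12 wild types, permutation p = 0.00012), and among females -0.39 (8 and 12, exact permutation p = 0.0228). In permutation tests the same measure differed by -0.083 (*Nckap1l*, p = 0.246, adjusted p = 0.37), -0.013 (*Gpsm3*, p = 0.773, adjusted p = 0.773) and -0.080 (*Dok3*, p = 0.277, adjusted p = 0.37) in the other lines. None of these passed, with standard errors of 0.0705, 0.0448 and 0.0718, and whether they differed from the value in the *Dock2* line was not tested.

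The libraries of the *Dock2* line did not sort fully by their labels on this measure. Of the 18 libraries labelled knockout, 16 lay between -0.724 and -0.285. The other 2, both female, lay at 0.251 and 0.324, above the wild-type median, with *Dock2* at 28.8 and 42.1 CPM. Of the 24 libraries labelled wild type, 19 lay between 0.0208 and 0.52, and 5 lay between -0.527 and -0.387, inside the range of those 16 knockouts. No library of either label lay between -0.285 and 0.0208. All libraries were kept under their labels, and neither group was redrawn.

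**Figure D2:**
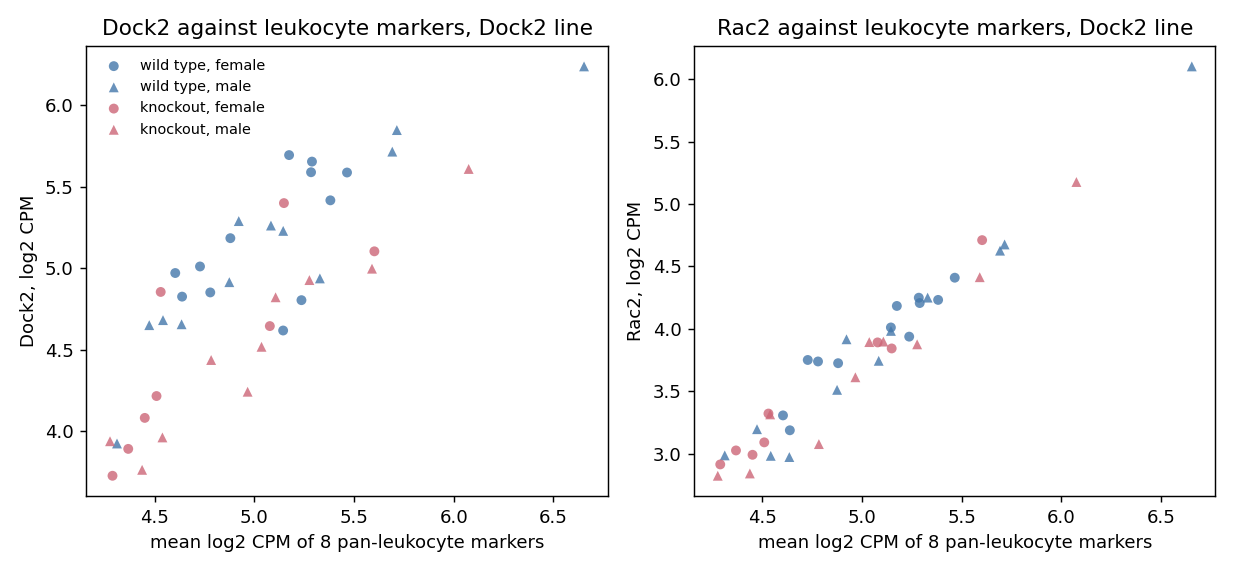
Log2 CPM of *Dock2* (left) and *Rac2* (right) against the mean log2 CPM of 8 pan-leukocyte markers in the 42 mice of the *Dock2* line, coloured by labelled genotype and shaped by sex. Both genes rose with the markers. For *Dock2* most knockout-labelled points sat below most wild-type points, with 2 knockout-labelled mice among the wild types and 5 wild-type-labelled mice among the knockouts, and for *Rac2* the genotypes lay on one band.

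With the mean of the leukocyte markers as a covariate, the *Dock2* change was -0.46 (standard error 0.0848, adjusted p = 0.0135 in edgeR's quasi-likelihood test), in a fit that called 0.232% of genes. *Dock2* was the single member called there. B cell markers moved with genotype in the same line. All 6 genes of that list, among them *Ms4a1* and *Cd79a*, had lower values in knockouts, with a median log2 fold change of -0.87 and none called, 6 of 6 having an unadjusted p under 0.05 against 5.1% of all genes. Their mean log2 CPM ran from 0.607 to 3.39 in knockouts and from -0.704 to 3.92 in wild types. With both the leukocyte and the B cell markers as covariates, *Dock2* changed by -0.33 (standard error 0.068, adjusted p = 0.0224), and 0.703% of genes were called. The 2 high knockout-labelled libraries had B cell marker means of 2.83 and 3.39, and the 5 low wild-type libraries had means from -0.704 to 3.64. The part of B cell content in the position of these 7 libraries was not tested.

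The paralogs were compared to see whether other exchange factors moved where *Dock2* was targeted. None of the 5 was called in the *Dock2* line, and the largest difference among them was -0.18. *Dock1*, the widely expressed paralog best known for engulfment of dying cells, had a lowest, median and highest level of 173, 187 and 223 CPM in knockouts and 153, 193 and 226 CPM in wild types. The groups overlapped, and the log2 fold change was -0.01 (standard error 0.0353). *Dock5* ran from 191 to 317 CPM (median 227) in knockouts and from 181 to 565 CPM (median 214) in wild types, a log2 difference of 0.0011 (standard error 0.0928). The value was better fixed for *Dock1* than for *Dock5*, and in neither gene did the knockouts leave the range of the wild types.

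*Dock8*, an exchange factor whose loss impairs T cell migration and survival, had 36.3, 48.8 and 61.3 CPM in knockouts and 41.9, 51.1 and 61.7 CPM in wild types (lowest, median, highest). Its log2 fold change was -0.10 (standard error 0.0492, unadjusted p = 0.0564, adjusted p = 0.988 in edgeR's quasi-likelihood test). *Dock10*, which is abundant in lymphocytes, had 33.3, 42.6 and 68.7 CPM against 30.9, 46.4 and 79.3 CPM, a log2 fold change of -0.18 (standard error 0.0966). *Dock11* had 24.5, 33.1 and 72.1 CPM against 26.1, 36.6 and 67.6 CPM, a log2 fold change of -0.10 (standard error 0.115). The groups overlapped for all 3 genes. With the leukocyte markers as a covariate the values of *Dock8*, *Dock10* and *Dock11* were -0.06, -0.06 and -0.02, and none was called.

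The ELMO scaffolds, partners of DOCK1, DOCK2 and DOCK5, were close to level between genotypes. *Elmo1*, the usual partner of DOCK2 in lymphocytes, had 43.2, 49 and 66.6 CPM in knockouts and 39.8, 52.7 and 62.3 CPM in wild types (log2 fold change -0.04, standard error 0.0457). *Elmo2* had 30.5, 36.4 and 45.4 CPM in knockouts and 28.4, 36.8 and 42.5 CPM in wild types (log2 fold change 0.02, standard error 0.0447). Neither was called.

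Of the GTPases, *Rac1* had 336, 392 and 517 CPM in knockouts and 323, 377 and 556 CPM in wild types, a log2 difference of 0.04 (standard error 0.0385). *Rac2*, the form of blood-derived cells, had 6.94, 11 and 36 CPM in knockouts and 7.72, 15.1 and 68.6 CPM in wild types, and its difference was -0.35 on the log2 scale (standard error 0.227). Neither was called (adjusted p = 1 for both in edgeR's quasi-likelihood test). The *Rac2* value was -0.06 (standard error 0.0482) with leukocyte markers as a covariate, and -0.62 (standard error 0.217, adjusted p = 0.474) without the libraries high in skin or striated muscle markers. Without the 2 knockout-labelled libraries high in *Dock2*, none of the other 9 genes was called, with adjusted p-values from 0.876 to 1.

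**Figure D3:**
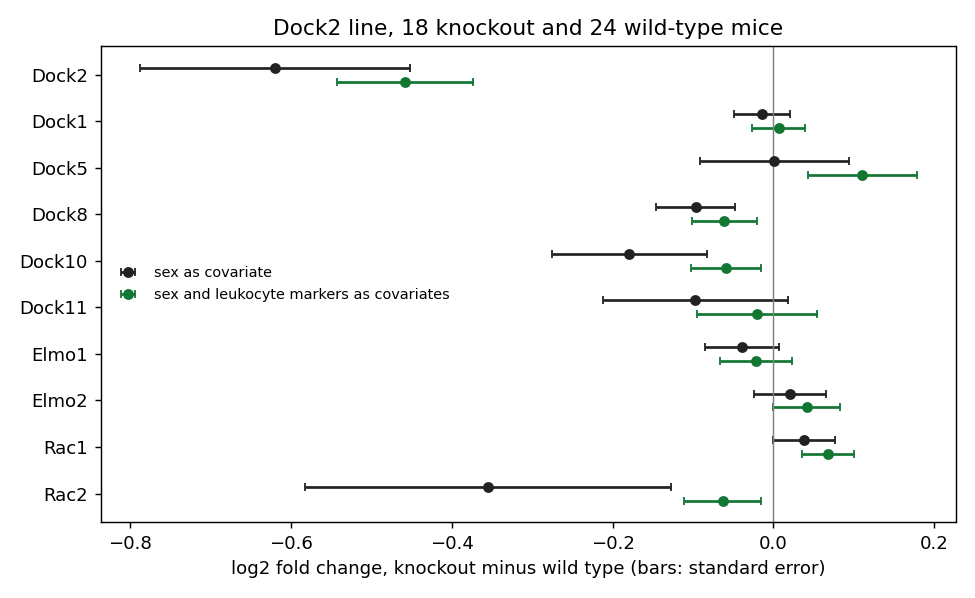
Log2 fold change of each gene between 18 knockout and 24 wild-type mice of the *Dock2* line, as points with bars of 1 standard error, with sex as covariate (black) and with the leukocyte markers added (green). *Dock2* lies at -0.62 and -0.46, *Rac2* moves from -0.35 to -0.06 when the markers are added, and the other genes stay within 0.2 of 0.

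The balance of the Rac genes was read as log2 CPM of *Rac1* minus that of *Rac2*. In the *Dock2* line it was 3.84 to 5.98 (median 5.1) in knockouts and 3.02 to 5.71 (median 4.67) in wild types. The difference in means of 0.37 (standard error 0.195) did not pass in a two-sided permutation test (p = 0.0663, adjusted p = 0.265 over 4 lines). It was 0.22 in males (permutation p = 0.493) and 0.52 in females (8 against 12, exact permutation p = 0.0355), and 0.58 (permutation p = 0.00334) without the libraries high in skin or striated muscle markers. In the *Nckap1l*, *Gpsm3* and *Dok3* lines the differences were 0.10, -0.26 and 0.05, with permutation p-values of 0.813, 0.365 and 0.87. Without the libraries high in skin or striated muscle markers the *Nckap1l* line gave 1.32 (9 against 7 mice, exact permutation p = 0.0273).

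In the other lines no member was called. The share of genes called was 0% in the *Nckap1l* line (0 of 17947), 0.00569% in the *Gpsm3* line (1 of 17560) and 0% in the *Dok3* line (0 of 17612), all by edgeR's quasi-likelihood test, where 807, 854 and 386 genes had an unadjusted p under 0.05. DESeq2 called 21, 4 and 3 genes in these lines. In the *Nckap1l* line, whose targeted gene encodes a WAVE complex subunit downstream of Rac, *Dock2* had medians of 35.4 CPM in knockouts and 35.9 CPM in wild types, with highest values of 104 and 173 CPM. Its log2 fold change was -0.41 (standard error 0.371). *Dock8* had the smallest p of the 10 there, at -0.34 (standard error 0.133, unadjusted p = 0.0166, adjusted p = 1 in the same test). All 8 pan-leukocyte markers lay below 0 in that line (median -0.34, none called). So did all 6 B cell markers (median -2.59, none called), 6 with an unadjusted p under 0.05 against 4.5% of all genes. With the leukocyte markers as a covariate *Dock2* came to -0.03 and *Dock8* to -0.26 (adjusted p = 0.212). Sample numbers fall into separate runs in every line but that of *Dock2*, and with the run as a covariate *Dock2* was -0.24 and *Dock8* -0.30 in the *Nckap1l* line, with no member called in any of them. In the *Gpsm3* line *Dock2* ran from 8.19 to 129 CPM (median 36.8) in knockouts and from 20.5 to 58.4 CPM (median 33.3) in wild types. Its log2 fold change of 0.43 (standard error 0.221) did not pass (adjusted p = 0.936), nor did *Elmo1* at 0.15 (standard error 0.0507, unadjusted p = 0.00622, adjusted p = 0.936). The 8 pan-leukocyte markers moved the same way there, all 8 with values above 0 and a median of 0.48, and with them as a covariate *Dock2* came to -0.014. *Dock2* differed in the *Dok3* line by -0.05 (standard error 0.232).

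Whether the *Dock2* line differed from the others was tested as its effect minus the mean effect of the other 3 lines in a single fit of all 160 samples. The value for *Dock2* was -0.60 (standard error 0.282, unadjusted p = 0.0364, adjusted p = 1 in edgeR's quasi-likelihood test). No member and none of 19849 genes passed (0%), while 370 genes had an unadjusted p under 0.05. For the paralogs the values ran from -0.18 for *Dock10* to 0.02 for *Dock5*, for *Elmo1* and *Elmo2* they were -0.02 and -0.03, and for *Rac1* and *Rac2* 0.06 and -0.45.

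The effect of the *Dock2* knockout was also compared between the sexes. No member had a called interaction of sex and genotype in the *Dock2* line, where 0.198% of genes did (35 of 17648), or in the *Nckap1l* line, where 0% did (0 of 17947). For *Dock2* itself the male minus female difference of the effect was 0.02 (standard error 0.336) in its own line.

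*Rac1* differed between females and males of the *Dock2* line. Female wild types there had a lowest, median and highest level of 323, 344 and 388 CPM, and male wild types 376, 402 and 556 CPM. Female knockouts had 336, 360 and 413 CPM and male knockouts 370, 401 and 517 CPM. Most males thus lay above most females, whatever their genotype. The log2 difference of male minus female was 0.23 (standard error 0.0383, adjusted p = 0.000144 in edgeR's quasi-likelihood test), and *Rac1* was the single member of the 10 called in a comparison that called 9.75% of genes. The share called among the 10 was thus close to that over all genes. *Rac1* stayed called without the libraries high in skin or striated muscle markers, at 0.26 (adjusted p = 6.22e-05 in the same test). In the *Nckap1l* line, tested after this was seen, it was 0.12 (standard error 0.0491, unadjusted p = 0.0179) and was not called (adjusted p = 0.234), in a comparison that called 0.178% of genes and none of the 10. Of 6 epithelium markers in the *Dock2* line, 2 were also called higher in males (list median 0.18), and of 6 enteric neuron and glia markers 4 were called lower (median -0.32). All 6 neutrophil markers lay above 0, with a median of 1.62 and none called. Their part in the *Rac1* difference was not tested. The share of DSS-treated mice in each sex is not known, and males of the *Dock2* line mostly carry lower sample numbers than females. Sex therefore cannot be told apart from treatment or sample order here.

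**Figure D4:**
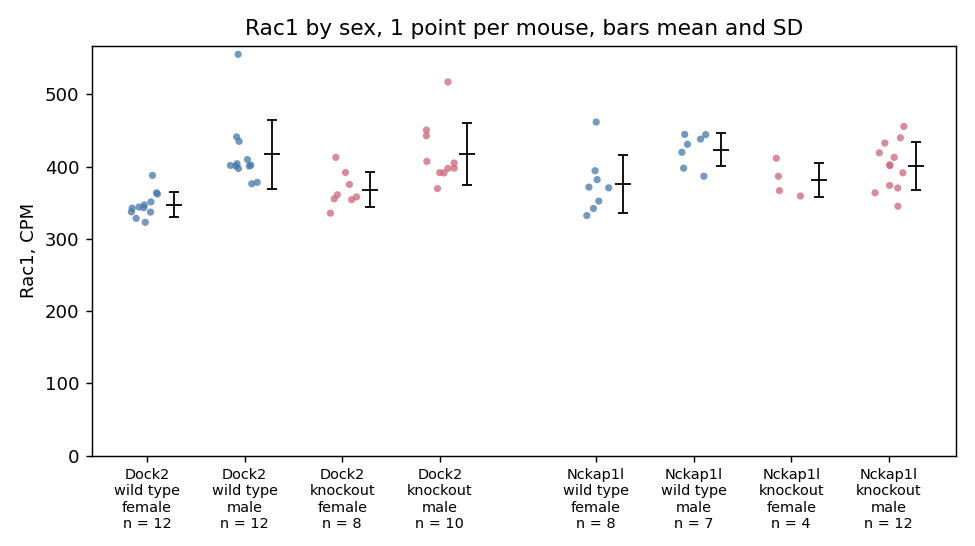
*Rac1* in CPM for each mouse of the *Dock2* and *Nckap1l* lines by genotype and sex, on an axis from 0, with the mean and SD beside each group. Males averaged 417 CPM in both genotypes of the *Dock2* line against 347 and 368 CPM in wild-type and knockout females, and 423 and 401 CPM against 376 and 381 CPM in the *Nckap1l* line.

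Levels were compared between strains in wild-type males, with the *Dok3* line (129) set against the mean of the 3 C57BL6/J lines. Strain, line, dose and run of sample numbers cannot be told apart here. The C57BL6/J mean also includes the *Nckap1l* line, whose tissue was taken at day 12 rather than day 10. *Dock8* had a lowest, median and highest level of 45.6, 58.4 and 91.1 CPM in the *Dok3* line, against medians of 50.6, 54.8 and 50.2 CPM in the *Dock2*, *Nckap1l* and *Gpsm3* lines. The ranges overlapped. Its log2 difference was 0.20 (standard error 0.0655, adjusted p = 0.0283 in edgeR's quasi-likelihood test), the single call among the 10 where 16.1% of all genes were called. It was 0.17 and not called (adjusted p = 0.157) without the libraries high in skin or striated muscle markers, and 0.22 (adjusted p = 0.0204) without the males whose sex markers differed from their label. Of 6 T cell markers all lay above 0 and 3 were called higher in the same comparison, with a list median of 0.64, and their part was not tested. *Dock2* differed by 0.39 (standard error 0.192, adjusted p = 0.157).

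Across the 80 wild-type samples, with the mean of each line removed, the members fell along a gradient in how they varied with *Dock2*. *Rac2* (Pearson r = 0.94, Spearman rho = 0.94) and *Dock10* (0.94 and 0.91) varied almost in step with it. *Dock11* (0.73 and 0.74), *Dock8* (0.65 and 0.53), *Elmo1* (0.64 and 0.50) and *Elmo2* (0.55 and 0.52) followed. All of these had adjusted permutation p-values of at most 4.5e-05 for both measures over the 9 pairs, with 100000 resamples drawn within lines, where 1e-05 is the smallest unadjusted value they can give. *Dock5* (0.39, p = 0.00061, adjusted p = 0.000784), *Rac1* (0.34, p = 0.00301, adjusted p = 0.00339) and *Dock1* (0.24, p = 0.045, adjusted p = 0.045, all by the same permutation test) had the lowest r, with rho of 0.40, 0.29 and 0.32. Leaving out the 2 samples farthest from the *Dock2* median gave an r of 0.93 for *Rac2*, 0.92 for *Dock10*, 0.70 for *Dock11*, 0.55 for *Dock8*, 0.55 for *Elmo1*, 0.50 for *Elmo2*, 0.43 for *Dock5*, 0.38 for *Rac1* and 0.36 for *Dock1*.

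Within lines, *Rac2* kept an r with *Dock2* of 0.84 (*Dock2* line), 0.97 (*Nckap1l*), 0.95 (*Gpsm3*) and 0.95 (*Dok3*), and *Dock10* of 0.88, 0.98, 0.86 and 0.94. The others were less even. *Elmo2* had an r of 0.005 in the *Dock2* line against 0.71, 0.66 and 0.62 in the other lines, *Elmo1* ranged from 0.19 (*Gpsm3*) to 0.86 (*Nckap1l*), and *Dock8* from 0.17 (*Gpsm3*) to 0.88 (*Nckap1l*). *Dock1* had an r of 0.429 (*Dock2* line), 0.071 (*Nckap1l*), 0.313 (*Gpsm3*) and 0.286 (*Dok3*). Its r was 0.07 over the 62 wild-type samples without the libraries high in skin or striated muscle markers. The line means removed there were those of all 80 samples, so differences between lines were not fully removed among the 62. The part of the left-out libraries in the *Dock1* relation was not tested. *Dock11* came closer to *Dock2* over those 62 samples, at 0.91. There *Elmo1* (0.704) and *Elmo2* (0.679) stood above *Dock8* (0.674), and *Dock10* (0.933) was level with *Rac2* (0.932). *Dock5* had 0.374 and *Rac1* 0.313.

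**Figure D5:**
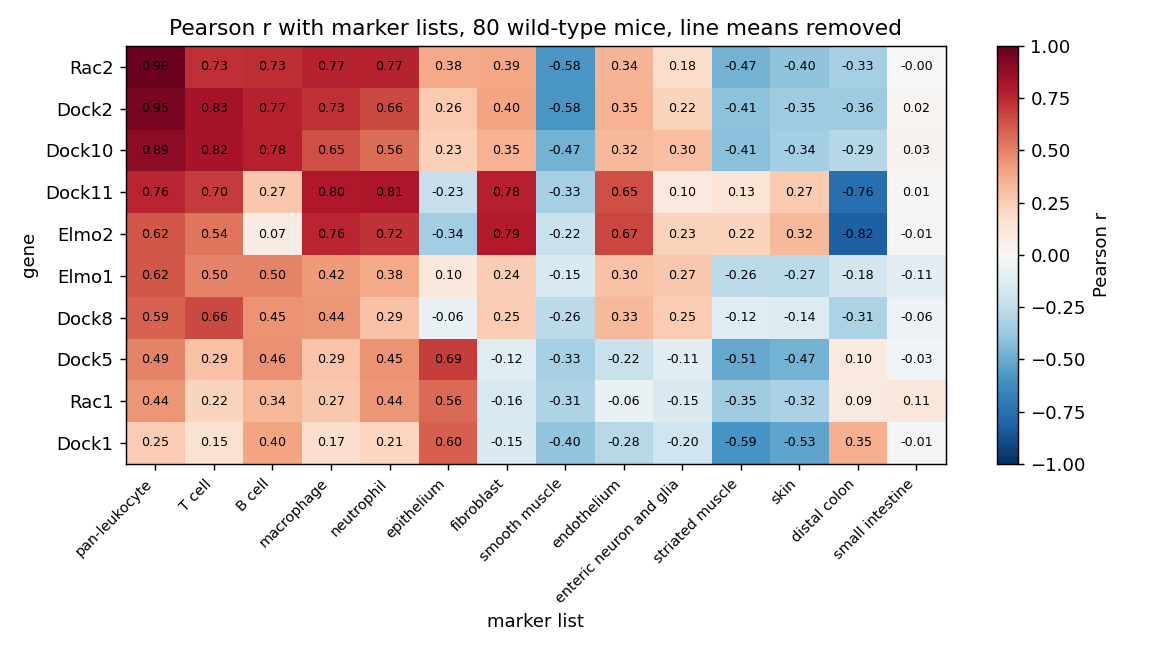
Pearson r of each gene with the mean log2 CPM of each marker list over 80 wild-type mice with line means removed, genes ordered by r with the pan-leukocyte list and colours from -1 (blue) to 1 (red). *Rac2*, *Dock2* and *Dock10* follow leukocyte markers, *Dock11* and *Elmo2* have a high r with fibroblast markers, and *Dock5*, *Dock1* and *Rac1* have their highest r with epithelium markers over these 80 mice, but over the 62 without the libraries high in skin or striated muscle markers *Dock5* and *Rac1* have it with neutrophil markers.

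The marker lists describe which part of the tissue each gene varied with. All values are Pearson r over the same 80 samples, and genes and lists share the same libraries. *Rac2*, *Dock2* and *Dock10* had r of 0.98, 0.95 and 0.89 with the pan-leukocyte markers. *Dock2* had 0.83 with T cell, 0.77 with B cell, 0.73 with macrophage and 0.66 with neutrophil markers. *Dock11* and *Elmo2* had r of 0.80 and 0.76 with macrophage markers, 0.78 and 0.79 with fibroblast markers, and 0.27 and 0.075 with B cell markers. Over the 62 samples without the libraries high in skin or striated muscle markers, *Dock11* had its highest r with the pan-leukocyte markers (0.91), above fibroblast (0.75) and B cell markers (0.59). *Elmo2* then had 0.78 with macrophage, 0.75 with pan-leukocyte and fibroblast and 0.30 with B cell markers. *Dock5* (0.69), *Dock1* (0.60) and *Rac1* (0.56) had their highest r with epithelium markers over the 80 samples. Over the 62 samples this held for *Dock1* (0.42) but not for *Dock5*, which had 0.49 with epithelium and 0.65 with neutrophil markers, or for *Rac1*, which had 0.42 and 0.53. *Dock8* had its highest with T cell markers (0.66). The r of *Dock1* with skin markers was -0.53 and with striated muscle markers -0.59 over the 80 samples, and -0.24 and -0.43 over the 62.

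The genes whose pattern was most like that of *Dock2* were sought among 14513 genes with a mean log2 CPM of at least 1, over the same 80 samples. The 10 highest Pearson r were those of *Coro1a* and *Ikzf1* (both 0.97), *Ptprc* and *Arhgap45* (both 0.96), *Sash3*, *Arhgap15*, *Pik3cd* and *Fam196b* (0.96, 0.96, 0.96 and 0.96) and *Ly9* and *Arhgap30* (both 0.95). *Coro1a* and *Ptprc* were in the pan-leukocyte list, *Arhgap15* encodes a protein that switches Rac off, and *Pik3cd* a leukocyte PI3-kinase subunit. *Rac2* ranked 17 and *Dock10* 18 in this order, *Dock11* 393, *Dock8* 640, and *Dock1* 4055, the lowest of the 9. *Fam196b* lies inside *Dock2* on the opposite strand (GRCm38 chromosome 11 from 34314822 to 34422640). The exons of both genes share 0 bases, but unspliced *Dock2* RNA runs across the exons of *Fam196b*, and the strand setting of the counting is not given in the sources used here, so reads of the pair cannot be told apart with certainty. *Fam196b* itself differed between genotypes of the *Dock2* line by -0.28 (standard error 0.165, adjusted p = 1 in edgeR's quasi-likelihood test).

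A knockout allele is carried on a stretch of chromosome from the strain it was made in, so the genes around *Dock2* were read from the same fit. Of 55 genes tested within 5 Mb, none was called by edgeR's quasi-likelihood test, 1 (*Cpeb4*, 0.10, standard error 0.0458) had an unadjusted p under 0.05, which is 1.82% of them against 5.1% of all genes, and the smallest adjusted p was 0.906.

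The rest of the pathway was described by lists of other genes. No gene of any list was called in the *Dock2* line by edgeR's quasi-likelihood test. Over the 11 DOCK genes the median log2 fold change was -0.02 (3 above 0, 8 below), against -0.0028 over all genes, with *Dock3* at -0.06, *Dock4* at -0.02, *Dock6* at 0.01 and *Dock9* at -0.0050. *Elmo3* had 0.06, *Rac3* 0.11 and *Rhog*, a GTPase that recruits ELMO, -0.01, with adjusted p-values of 1. Of 12 other Rac exchange factors 8 lay below 0 (median -0.08), with the smallest p for *Vav2* at -0.25 (standard error 0.0856, adjusted p = 0.601). Of 10 genes that switch Rac off, 5 lay below 0 (median -0.0019) and 3 had an unadjusted p under 0.05, against 5.1% of all genes. The smallest p was that of *Arhgdib*, which holds Rac in the cytosol of blood cells, at -0.39 (standard error 0.151, adjusted p = 0.78 in the same test). With the leukocyte markers as a covariate *Arhgdib* was at -0.23 (standard error 0.057, adjusted p = 0.0622 in the same test).

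Downstream and upstream lists gave the same count of 0 calls. Of 11 WAVE complex genes, through which Rac starts actin branching, 6 lay below 0 (median -0.07), with the smallest p for *Cyfip2* at -0.25 (standard error 0.0898, adjusted p = 0.63). Of 5 PAK and IQGAP effectors 3 lay above 0 (median 0.0064), with the smallest p for *Pak1* at 0.14 (standard error 0.0521, adjusted p = 0.661). Of 5 subunits of the phagocyte NADPH oxidase, which needs Rac for its burst, 3 lay above 0 (median 0.0019) and *Ncf4* had -0.28 (standard error 0.197, adjusted p = 1). With the leukocyte markers as a covariate 4 of these 5 lay above 0 (median 0.14) and 4 had an unadjusted p under 0.05, against 12.6% of all genes in that fit. None was called, and the smallest p was that of *Cyba* at 0.22 (standard error 0.0524, adjusted p = 0.0554 by the quasi-likelihood test of edgeR). In that fit the neutrophil markers ran from 0.19 to 0.83 and the macrophage markers from -0.02 to 0.20. The B cell markers ran from -0.71 to -0.54. The part of these cell types in the oxidase values was not tested. Among 10 genes that signal to DOCK2, 7 lay below 0, with a median of -0.17, and 3 had an unadjusted p under 0.05, against 5.1% of all genes. With the leukocyte markers as a covariate the median of that list was -0.01, with 5 genes on each side of 0. Without that covariate the smallest p was that of *Cxcr5*, the chemokine receptor that takes B cells into follicles, at -0.76 (standard error 0.182, unadjusted p = 0.000156, adjusted p = 0.155 in edgeR's quasi-likelihood test), beside the B cell markers given above. With the covariate *Cxcr5* stayed at -0.57 (standard error 0.146, adjusted p = 0.0749 in the same test).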

How the data were processed

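Ribosome-depleted total RNA from 160 distal colon samples was sequenced as single reads of 100 bases. Per the labels and the submitters' processing notes, the authors aligned the reads with STAR (mm10) and assigned them to genes with featureCounts (Subread). The deposited values are raw counts for 39179 Ensembl genes per sample, without normalization. Versions, annotation and strand setting are not given in the sources used here. GENCODE vM21 of the same build named 96.2% of genes, holding 99.67% of counts.

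Groups are the labelled combinations of line and genotype. For each line low genes were removed (filterByExpr), TMM factors computed and glmQLFit of edgeR 4.0.16 run in R 4.3.3, with sex as covariate where both sexes were present. P-values were adjusted by Benjamini-Hochberg over all genes (threshold 0.05). CPM and log2 CPM (prior count 2) use TMM factors over all 160 samples. Single values were compared by permutation with scipy 1.17.1 (100000 resamples, exact where a group held fewer than 10). The methods of the study used limma-voom, which was run as an alternative beside DESeq2 1.42.0, library totals, other filters, sva 3.50.0 and subsets of samples. Chosen after seeing the data were the B cell covariate, leaving out the skin or striated muscle libraries and the 2 knockout-labelled libraries, the *Nckap1l* line sex test and the alternatives of the sex and strain comparisons.

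Tested on simulated counts of 17648 genes for the *Dock2* line, the fit recovered 91% of 67 genes changed by 0.5 on the log2 scale. Of its calls 5.37% were false. The changed genes were drawn without the lowest counted ones, and each gene was simulated independently. No sex difference and no shared variation in leukocyte content was put in. In the measured counts of that line 6 genes were called. *Dock2* at -0.62 (standard error 0.168) was not among them (adjusted p = 0.21 in edgeR's quasi-likelihood test). Whether the recovered share holds for the 10 members in the measured counts was not tested. No 2 samples of a group differed as little as sampling noise (smallest chi-square per gene 4.01). Each sample has its own number in the labels and is taken as 1 mouse, which the labels do not state. P-values measure the spread between these samples. The genes and lists were chosen with earlier results of these data known. The named genes are the 10 members, the other DOCK, ELMO and Rac genes (1 of them is not reported here), the gene of smallest p in each pathway list, called neighbours or list genes, and the 10 genes most like *Dock2*; *Cpeb4* and *Cyba* were named after their values were seen.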

Additional observations from a re-analysis of the deposited data

How the results depend on the processing

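No paired analysis was possible because the labels give no replicate numbers shared between groups. Sample numbers fall into runs that hold both genotypes in every line but that of *Dock2*, and the labels do not say what a run is. With the run as a covariate 0 (*Nckap1l*), 1 (*Gpsm3*) and 0 (*Dok3*) genes were called, as many as without it, and every member kept its direction, while *Dock2* in the *Nckap1l* line moved from -0.41 to -0.24 and *Rac2* from -0.34 to -0.054. Group mean levels moved by less than 1 SD with library totals in 80 of 80 cases. The count of genes called moved most. In the *Dock2* line, where 6 were called, DESeq2 called 69, limma-voom 0, no filter 31, a minimum of 10 counts in every sample 1, surrogate variables 58, the leukocyte covariate 41, males only 1 and females only 0. In alternatives chosen after seeing the data, the leukocyte and B cell covariates gave 124 calls, leaving out the libraries high in skin or striated muscle markers 79, and leaving out the 2 knockout-labelled libraries high in *Dock2* 24. Those 2 libraries were picked by their *Dock2* value while the low wild-type libraries stayed in. That choice itself can add calls of *Dock2* and of genes that vary with it. In the *Nckap1l* line (0 called) DESeq2 called 21, no filter 27, 2 surrogate variables 95 and the leukocyte covariate 21. In the *Gpsm3* line (1 called) the counts were 4 with DESeq2, 32 with no filter, 0 with at least 10 counts in every sample and 2 without the skin or muscle libraries, and in the *Dok3* line (0 called) 3 with DESeq2 and 15 with no filter. The cause was not tested.

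*Dock2* in its own line, not called at -0.62, was called at -0.62 with DESeq2, -0.68 with 2 surrogate variables, -0.46 with the leukocyte covariate, -0.33 with the leukocyte and B cell covariates and -0.78 without the skin or muscle libraries, and its direction held in every alternative run. For *Rac1* minus *Rac2* the permutation p fell under 0.05 in 2 alternatives of the *Dock2* line, at 0.52 in females only and at 0.58 without the skin or muscle libraries. It also did at 1.32 without those libraries in the *Nckap1l* line. These p-values were not adjusted over the 4 lines. *Dock8* in 129 against C57BL6/J fell to 0.17, not called, without the skin or muscle libraries. The cause of these changes was not tested.

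Directions turned in 61 cases, all of differences that were not called. All values are log2 differences of knockout minus wild type unless stated. With the leukocyte and B cell covariates the turned values in the *Nckap1l* line were 0.013 for *Dock2*, 0.056 for *Dock5*, -0.083 for *Elmo2*, 0.0043 for *Rac1* and 0.20 for *Rac2*. In the *Dock2* line they were 0.024 for *Dock1* and -0.011 for *Elmo2*, in the *Gpsm3* line -0.012 for *Dock2*, -0.0009 for *Rac1* and -0.071 for *Rac2*, and in the *Dok3* line 0.0091 for *Dock5* and -0.029 for *Dock10*. With the leukocyte covariate alone they were 0.040 for *Dock11* and 0.19 for *Rac2* (*Nckap1l*), 0.0066 for *Dock1* (*Dock2* line), -0.014 for *Dock2*, -0.0008 for *Rac1* and -0.074 for *Rac2* (*Gpsm3*), and -0.037 for *Dock10* and -0.0045 for *Rac2* (*Dok3*). In males only they were -0.017 for *Dock1* and -0.031 for *Elmo2* (*Nckap1l*), and 0.0047 for *Dock1*, -0.043 for *Dock5*, 0.0011 for *Elmo1* and -0.0005 for *Rac1* (*Dock2* line). *Dock2* per leukocyte marker RNA was 0.014 in males of the *Nckap1l* line, and the *Dock2* line effect minus that of the other lines was 0.034 for *Dock1*, -0.023 for *Dock5*, 0.016 for *Dock8* and 0.024 for *Elmo2* in males. In females only they were 0.022 for *Rac1* and 0.22 for *Rac2* (*Nckap1l*) and -0.017 for *Elmo2* (*Dock2* line), and *Rac1* minus *Rac2* was -0.081 (*Nckap1l*). With no sex covariate *Elmo2* was -0.0073 (*Nckap1l*).

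Without the skin or muscle libraries the turned values were -0.15 for *Elmo2* (*Nckap1l*), -0.031 for *Dock5* (*Dock2* line), and 0.011 for *Dock8*, -0.0092 for *Elmo1* and -0.020 for *Rac2* (*Dok3*). For male minus female in the *Dock2* line they were 0.022 for *Dock8* and 0.033 for *Dock10* without those libraries, -0.017 for *Dock2* and -0.016 for *Dock11* with library totals, and -0.050 for *Dock2* with limma-voom. With 2 surrogate variables they were 0.048 for *Rac2* (*Nckap1l*), -0.0007 for *Dock5* (*Dock2* line), -0.0027 for *Rac1* (*Gpsm3*) and 0.0063 for *Dock8* (*Dok3*). With library totals they were -0.015 for *Dock5* and -0.0005 for *Elmo2* (*Dock2* line) and -0.0057 for *Rac1* (*Gpsm3*). *Dock5* in the *Dock2* line was -0.0012 with at least 10 counts in every sample and -0.019 without the 2 knockout-labelled libraries high in *Dock2*. In the *Dok3* line, without the sex-marker mismatches, *Dock1* was 0.0027 and *Dock8* 0.0052, with limma-voom *Dock10* was -0.071, *Elmo1* -0.0053 and *Rac2* -0.083, and with DESeq2 *Rac2* was -0.39. The level of every member was above that of 3 counts in every library. How much of the spread is counting error was not tested.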
